A study of Mus musculus with 3 samples.

Results

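Plagl1, also named Zac1 or Lot1, encodes a zinc finger transcription factor, and its transcript was measured here by 3 probe sets of an expression array. A probe set is a group of short probes that together give 1 signal for 1 transcript. The 3 were all those, among 45037 probe sets without the array's controls, whose only gene symbol in the platform annotation was Plagl1. They were set beside the 2 probe sets of Plag1 and the 4 of Plagl2, the other genes of the same family. Plagl1 was chosen by its higher signal in the mutant arrays, so its difference from normal is described below with no test. Plag1 and Plagl2 were chosen by their relation to it.

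The samples were 3 pools of whole mouse embryos of both sexes at 8.5 days post coitum (dpc), 1 pool per single-channel Affymetrix array. The normal pool held 6 litter mates of the strain C57Bl/6J. Mutant pool 1 held 8 embryos and mutant pool 2 held 6. The mutant embryos, also of C57Bl/6J background, were Dnmt3l-/+, from matings of a Dnmt3l-/- dam with a wildtype sire, and the labels describe them as deficient in maternal methylation. Dnmt3l is a cofactor of the enzymes that methylate DNA in the growing oocyte, and such a dam lacks it, whereas the embryos carry the sire's wildtype allele. The labels give no replicate of the normal pool. They call the mutant arrays biological replicates.

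The PLAG family consists of C2H2 zinc finger proteins that bind GC-rich DNA. Plagl1 restrains cell division and can promote cell death when expressed at high levels, whereas Plag1 and Plagl2 promote proliferation. Plagl1 is imprinted: a promoter in a CpG island carries DNA methylation set in the oocyte, which silences the maternal copy, and the paternal copy is expressed. Human PLAGL1 is known for transient neonatal diabetes, which follows when both copies are active. Plag1 and Plagl2 are not known as imprinted genes. The question behind the comparison is which transcripts differ when the oocyte did not set those marks.

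The stretch before the RefSeq start of Plagl1 is shown because the methylation mark of this gene is set at a promoter of this kind. It spans the 250 bases before the start, at chr10:13090582-13090831 on the + strand of GRCm38.p6, and CpG dinucleotides are in capitals.

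Plagl1 promoter: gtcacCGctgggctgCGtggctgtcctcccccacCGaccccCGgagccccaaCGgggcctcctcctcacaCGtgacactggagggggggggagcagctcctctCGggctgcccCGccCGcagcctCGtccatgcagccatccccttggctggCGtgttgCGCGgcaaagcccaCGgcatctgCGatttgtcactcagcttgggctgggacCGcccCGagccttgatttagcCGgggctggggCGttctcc

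The window held 19 CpG dinucleotides and was 70.4% G or C. A count of 19 or more was found in 19.7% of the 32851 RefSeq windows of that length, whose median was 6. The eight-letter site reported for Plagl1, GGGGCCCC, which reads the same on both strands, was not among its letters, and 0.889% of all windows held it. The consensus reported for PLAG1 is GGGGC or GAGGC, then 6 to 8 bases of any kind, then GGG, and both strands were searched. The Plagl1 window held it 2 times, both on the - strand, without overlap between them. The matches were GAGGCTGCGGGCGGGG, whose 5′ end lay at -125 from the gene start, and GAGGCCCCGTTGGGG, at -190. That consensus was in 19.9% of all windows, and in 62.5% of the 2887 windows that were at least as rich in G and C. Methylation was not measured on these arrays, and a match is a match of letters only.

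All 3 Plagl1 probe sets read higher in both mutant arrays than in the normal array, but by very different amounts. The brightest, 1426208_x_at, gave 3617 on the normal array, 11462 on mutant array 1 and 15204 on mutant array 2. These signals lay at percentiles 95.8, 99.1 and 99.6 of their arrays, so this probe set was among the bright ones already in normal embryos. Mutant array 1 was 3.17 times the normal signal and mutant array 2 was 4.20 times. Log2 ratios compare log2(signal + 31.9) between arrays, where the constant is the median over arrays of the 20th percentile of signal, and they understate the change of dim probe sets. On this scale the mean ratio was 1.86 (limma SE 0.21, with 2 mutant arrays). Its suffix marks probe sets with some probes that closely match other sequences, and whether such sequences added to its signal was not tested.

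The second probe set, 1450533_a_at, went from near the bottom of the array to its upper part. It gave 18.4 in the normal pool, at percentile 13.8, with 472 and 772 in mutant pools 1 and 2, at percentiles 73.9 and 80.9. Its suffix marks probes shared by several transcripts of 1 gene. The log2 ratios were 3.32 and 4.0, with a mean of 3.66 (limma SE 0.38). The normal reading lay below the constant that was added, so the size of this ratio depends on it: the mean was 4.17 with the constant halved and 3.02 with it doubled. As 1 array gave the normal value, a low reading there would raise both ratios alike.

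The third probe set, 1438588_at, was the dimmest of the 3 on the mutant arrays but not on the normal array. It read 96.9, 149 and 261 on the normal array and mutant arrays 1 and 2. Its percentiles were 40.5, 53.2 and 63.5. The log2 ratios were 0.49 in mutant 1 and 1.19 in mutant 2, with a mean of 0.84 (limma SE 0.41), so this probe set showed the same direction with a smaller ratio. The 3 mean ratios therefore spanned 0.84 to 3.66 for what the annotation gives as a single gene. Which exons or transcript forms each probe set reads was not analysed here.

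In the plot of signals, the normal, mutant 1 and mutant 2 arrays are in that order from lowest to highest for each Plagl1 probe set, and no such order is seen for the other genes.

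**Figure D1:**
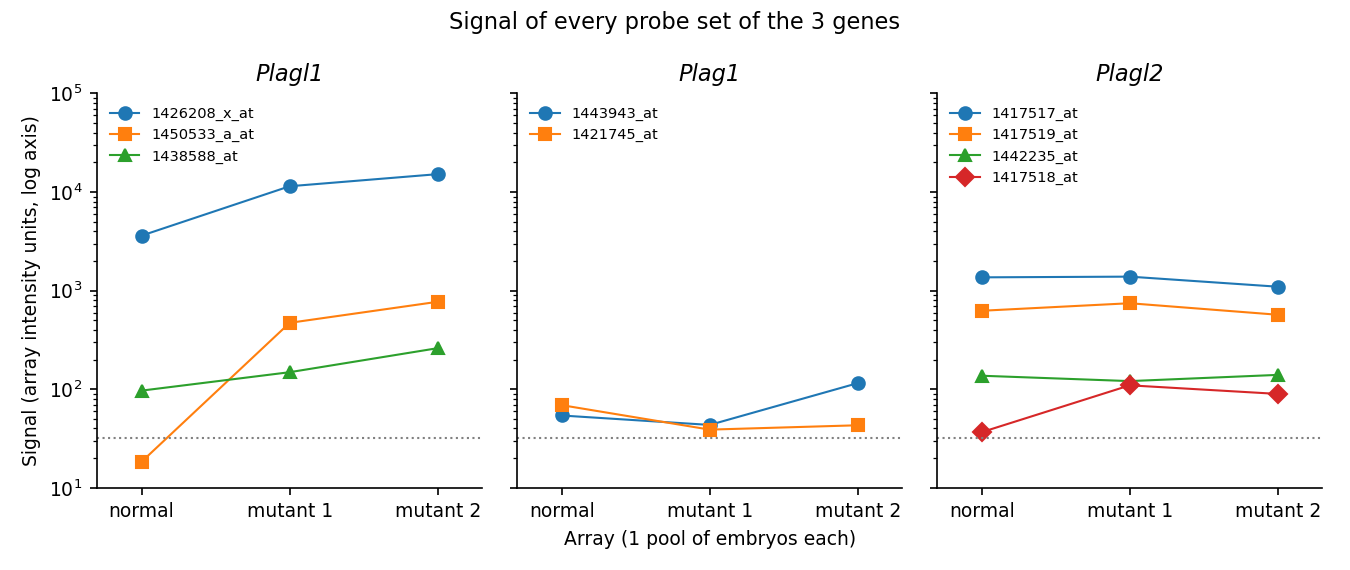
Signal of each probe set of Plagl1 (3), Plag1 (2) and Plagl2 (4) on the normal array and mutant arrays 1 and 2, in array intensity units on a log axis; each point is 1 array, lines join the points of 1 probe set, and the dotted line is the constant of 31.9 added before taking logs. The Plagl1 probe sets go from 3617, 96.9 and 18.4 to 15204, 261 and 772 on mutant array 2, while the brightest Plagl2 probe set stays between 1097 and 1388.

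The mutant arrays also differed from each other, in a comparison that does not use the normal array. Mutant array 2 read above mutant array 1 for all 3 Plagl1 probe sets, by 1.33 times for 1426208_x_at, 1.64 times for 1450533_a_at and 1.75 times for 1438588_at. Gaps at least as large in that direction, on the log2 scale, were found in 16.3%, 6.72% and 6.25% of the 27022 probe sets kept by a filter on dim signal. Among 12913 genes, each by its brightest kept probe set, 54.7% read higher on mutant array 2. With 1 pool per value these differences have no test.

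Across the array, 2.57% of kept probe sets were at least 2-fold higher than normal on the log2 scale in both mutant arrays, and limma called 0.548% higher and 0.0296% lower at an adjusted p under 0.05. All these calls were lost without the filter on dim signal, with 2423 higher and 2451 lower at an unadjusted p under 0.05, and without the trend of variance on signal, with 1641 and 1814. The Plagl1 probe sets 1426208_x_at and 1450533_a_at were at least 2-fold higher in both, and 1438588_at was not. As description only, since Plagl1 was selected on this difference, 252 kept probe sets, or 0.933%, had a ratio in their less changed mutant array as high as that of 1426208_x_at. For 1450533_a_at the number was 13, and for 1438588_at it was 2202. The normal signal of 1450533_a_at lay at percentile 13.8, so it met the filter, set at the 40th percentile, only through its mutant signals. By the mean of both ratios of its brightest probe set, Plagl1 was 144th of the 12913 genes.

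Plagl2, the closest in the family to Plag1 in its action on growth, did not differ detectably between normal and mutant embryos. Of its 4 probe sets 3 were kept by the filter. The brightest, 1417517_at, read 1365 in the normal pool, 1388 in mutant pool 1 and 1097 in mutant pool 2, so the normal value lay between the mutant values. Its log2 ratio was -0.14 (95% interval -0.76 to 0.47, adjusted p = 0.845, limma). The second, 1417519_at, read 625, 746 and 570, with the normal value again between the others. It gave 0.06 (95% interval -0.64 to 0.75, adjusted p = 0.949, limma). The third, 1442235_at, read 137, 121 and 140 and gave -0.06 (95% interval -0.90 to 0.77, adjusted p = 0.956, limma), with a sign that turned under other scalings of the arrays. These intervals do not show that Plagl2 was unchanged.

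A dim Plagl2 probe set, 1417518_at, read differently from the other three. It gave 36.7 in the normal pool, 110 in mutant pool 1 and 89.7 in mutant pool 2, both above normal. The filter removed it. Fitted without the filter, its log2 ratio was 0.93 (95% interval -0.10 to 1.97, adjusted p = 0.499, limma), and its normal signal lay near the constant that was added.

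Plag1, a growth-promoting factor found rearranged in salivary gland adenomas, was dim on every array. Neither of its 2 probe sets was kept. The probe set 1443943_at read 54.2 in the normal pool, 43.5 in mutant pool 1 and 115 in mutant pool 2. The other, 1421745_at, read 69.0 in the normal pool and 38.9 and 43.1 in the mutant pools. The signs of the mean log2 ratios differed, at 0.29 (95% interval -1.16 to 1.74, adjusted p = 0.894) and -0.47 (95% interval -1.37 to 0.44, adjusted p = 0.697) in limma without the filter. No direction can be given for Plag1 from these arrays.

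Set beside each other, the brightest probe set of Plagl1 exceeded that of Plagl2 in log2 ratio by 1.63 in mutant 1 and 2.37 in mutant 2. Against 1421745_at of Plag1 it exceeded by 2.17 and 2.49, and against 1443943_at by 1.85 and 1.29. Other pairs were closer: against the dim 1417518_at of Plagl2 it exceeded by 0.61 and 1.24. The Plagl1 probe set 1438588_at differed from 1417518_at by -0.55 and 0.36. These are differences of ratios to the same normal array and carry no test, since Plagl1 was chosen for its ratio. Levels of different genes are not compared, because probe sets differ in brightness for the same amount of RNA.

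The genes beside Plagl1 on the chromosome read near normal by their median. In the order of the RefSeq gene table, the 10 entries on each side include 10 with a probe set of their own, all kept by the filter. Their median log2 ratio was -0.0019, against -0.02 for all 12913 genes. Of these, 4 were higher in both mutant arrays and 3 lower in both, against 36.5% and 39.1% of all genes, and none passed limma, against 0.759%. The noncoding RNA Hymai, which lies at the same promoter, was not analysed here.

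Sf3b5, a small splicing factor subunit and the nearest measured gene before Plagl1, read 8044, 6164 and 6209 on the normal array and mutant arrays 1 and 2, a log2 ratio of -0.38 (SE 0.15, adjusted p = 0.372, limma). Stx11, the next measured gene beyond Sf3b5, read 113, 108 and 116 (log2 ratio -0.01, SE 0.34). On the other side, Zc2hc1b read 205, 173 and 167 (log2 ratio -0.23, SE 0.31). The ribosome biogenesis gene Ltv1 read 2326, 3330 and 2797 (0.39, SE 0.20). Neighbouring genes thus gave both signs. Fuca2, a secreted fucosidase gene farther along, read 272, 588 and 683, the highest ratio of the 10 (1.13, SE 0.27, adjusted p = 0.186, limma). Pex3, needed to build peroxisome membranes, read 390, 589 and 528 (0.48, SE 0.26).

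Counting only protein-coding genes, an alternative chosen after seeing the data, gave 18 kept neighbours with a median of 0.09. It added Hivep2, a zinc finger gene, at 1.34 (SE 0.32, adjusted p = 0.189, limma), whose signal went from 66.1 to 214 and 219. Of the 18, 10 were higher in both mutant arrays and 4 lower in both, against 36.5% and 39.1% of all genes. None of the 18 passed, and none reached the ratio of the brightest Plagl1 probe set in either mutant array.

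**Figure D2:**
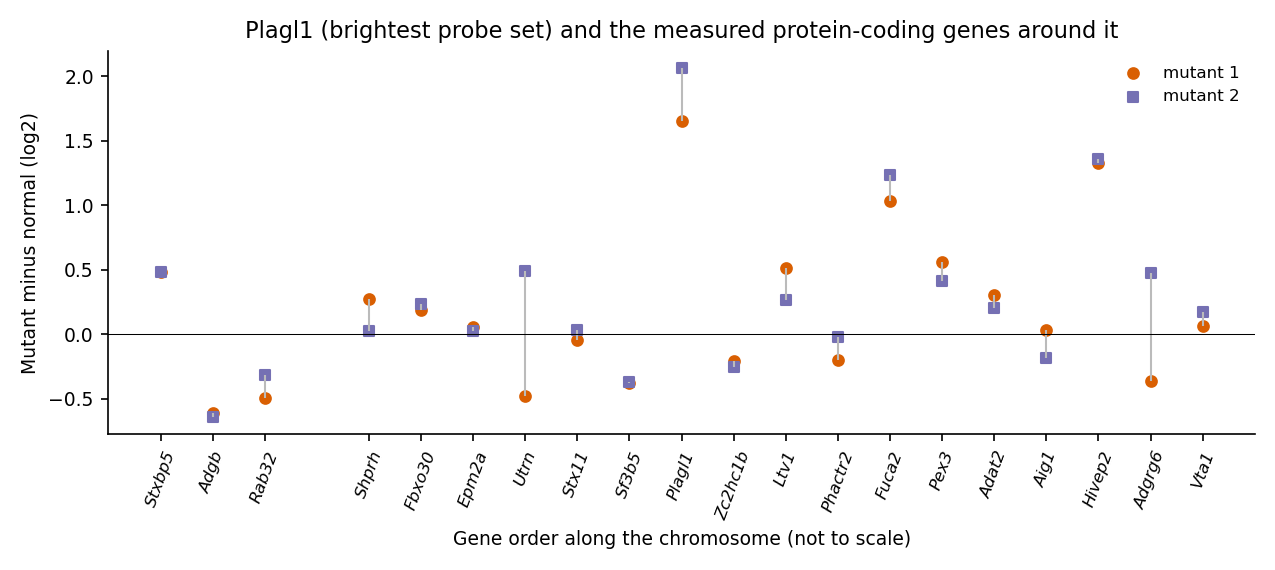
Log2 ratio of mutant to normal signal for the brightest Plagl1 probe set and for the measured genes among the 10 nearest protein-coding genes on each side, in chromosome order and not to scale; circles are mutant array 1, squares mutant array 2, and a grey line joins the values of 1 gene. Plagl1 lies at 1.66 and 2.06, Hivep2 and Fuca2 come next, and most other genes lie within 0.5 of 0. Adgb did not pass the filter on dim signal.

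Plagl1 is 1 of a class of genes that are expressed from the paternal copy and whose maternal copy is marked in the oocyte. Of 21 other genes listed here as such and measured, 18 were kept by the filter. Their median log2 ratio was 0.36, with 13 higher in both mutant arrays, against 36.5% of all genes, none lower in both, against 39.1%, and 5 mixed in sign. None passed limma over all probe sets, against 0.759% of all genes. By the mean ratio of its brightest probe set, for which it was chosen, Plagl1 stood first of the 19, while Peg10 had the higher ratio in mutant 1 (2.38 against 1.66). The 4 others with the highest ratio in their less changed array were Sgce, Impact, Peg10 and Zdbf2.

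Sgce, a sarcoglycan gene, read 643, 1266 and 1322 on the normal array and mutant arrays 1 and 2, and the mutant values lay close together. Impact, a regulator of translation, read 1470, 2835 and 4329, and Zdbf2 read 966, 1741 and 2669. For both of these the order of the arrays was that of Plagl1, with mutant 2 above mutant 1. Peg10, a retrotransposon-derived gene, had the opposite order, reading 130, 808 and 259. Of the 18 kept genes 11 read higher on mutant array 2 than on mutant array 1, against 54.7% of all genes.

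Of 11 measured genes that other studies have linked to Plagl1 as targets, 9 were kept, and none passed limma, against 0.759% of all genes. In both mutant arrays 3 were higher and 3 lower, near the 36.5% and 39.1% of all genes, and 3 were mixed. The median log2 ratio was -0.24, with -0.47 in mutant 1 and 0.10 in mutant 2. The 4 that changed most in their less changed array were Slc2a4, Ccnd1, Socs3 and Tcf4. Slc2a4, the insulin-responsive glucose transporter, read 310 in the normal pool, 207 in mutant pool 1 and 89.5 in mutant pool 2. Ccnd1, cyclin D1 of the cell cycle, read 5744, 3574 and 4051 (log2 ratio -0.59, SE 0.18, adjusted p = 0.265, limma). The mutant values lay below normal for both genes. Socs3, an inhibitor of cytokine signalling, read 163, 282 and 231, and the transcription factor gene Tcf4 read 1538, 1101 and 1335. Cdkn1a, a cell cycle inhibitor named here outside the rule for its role in growth arrest, read 404, 630 and 434 (0.35, SE 0.32, adjusted p = 0.687, limma). Nppa, a heart peptide gene, differed most between the mutant arrays, reading 399, 117 and 735.

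Of imprinted genes often grouped with Plagl1 in an expression network, all 15 measured were kept. In both mutant arrays 7 were higher and 4 lower, against 36.5% and 39.1% of all genes, and 4 were mixed, with a median of 0.03. By limma 2 fell, against 0.031% of all genes called lower: Cdkn1c, a cell cycle inhibitor, with signals of 3738, 32.3 and 51.3 (log2 ratio -5.69, SE 0.32, adjusted p = 0.0111, limma), and Igf2r, whose product removes Igf2 protein from the cell surface, with 2932, 305 and 338 (-3.07, SE 0.24, adjusted p = 0.0185, limma). Grb10, a growth factor receptor adaptor, read 14145, 3195 and 433, and Gatm, an enzyme of creatine synthesis, read 497, 88.3 and 159. Neither passed. Most genes of this list are imprinted themselves, so their values do not isolate Plagl1.

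Of the same network genes, Igf2 and Dlk1 are given outside the rule. They stand beside Cdkn1c above, which read lower in both mutant arrays. The fetal growth factor Igf2, by the brightest of its 2 probe sets, read 13550, 13896 and 13835 (log2 ratio 0.03, SE 0.13, adjusted p = 0.936, limma). These nearly level signals lay at percentiles 99.4, 99.4 and 99.5 of their arrays. Whether a probe set this bright could still show a rise was not tested. Dlk1, a Notch family ligand, read 4577, 9100 and 10448 (1.09, SE 0.17, adjusted p = 0.0794, limma).

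Of 9 kept genes reported as targets of Plag1 and Plagl2, 6 were lower in both mutant arrays and 3 higher in both, against 39.1% and 36.5% of all genes. The median was -0.42. By limma 1 gene was called lower, against 0.031% of all genes. It was Cdkn1c, the same gene as given above in the imprinted network list. Fzd2 and Fzd9, Wnt receptors, read 4550, 2257 and 2066, and 291, 123 and 139. The retinoic acid binding protein gene Crabp2 read 8072, 3682 and 5650. In the same arrays 13 kept neural markers had a median of -0.46, with summed signals of 10753, 5255 and 8246 over the 14 measured, and their part in these values was not tested.

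Among genes of proteins reported to bind or modify PLAG factors, none passed limma, against 0.759% of all genes. Of 10 kept, 3 were higher in both mutant arrays and 5 lower in both, near the 36.5% and 39.1% of all genes, with a median of -0.12. Nkx2-5, a heart factor reported to act with Plagl1, read 540, 287 and 246 (log2 ratio -0.94, SE 0.28, adjusted p = 0.253, limma). Kat2b, an acetyltransferase, read 251, 342 and 331, the deacetylase gene Hdac1 5638, 4386 and 4403, and the coactivator gene Crebbp 1463, 1636 and 1860. Kpna2, an importin reported to carry PLAG1 into the nucleus, was level at 11267, 10921 and 10574.

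Of 8 kept genes for factors that set or protect imprints, 4 were lower in both mutant arrays, against 39.1% of all genes, and none was higher in both, against 36.5%. None passed limma, against 0.759%, and the median was -0.18. Zfp57, which binds the methylated copy of imprinted regions, read 154, 115 and 123. Its corepressor Trim28 read 16034, 13898 and 14741, the maintenance factor Uhrf1 6263, 4511 and 5157, and the methyltransferase gene Dnmt3a 876, 690 and 828. Dnmt3l itself was removed by the filter, with 12.2, 183 and 14.3, and it does not check the labels, because these embryos carry a wildtype allele.

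**Figure D3:**
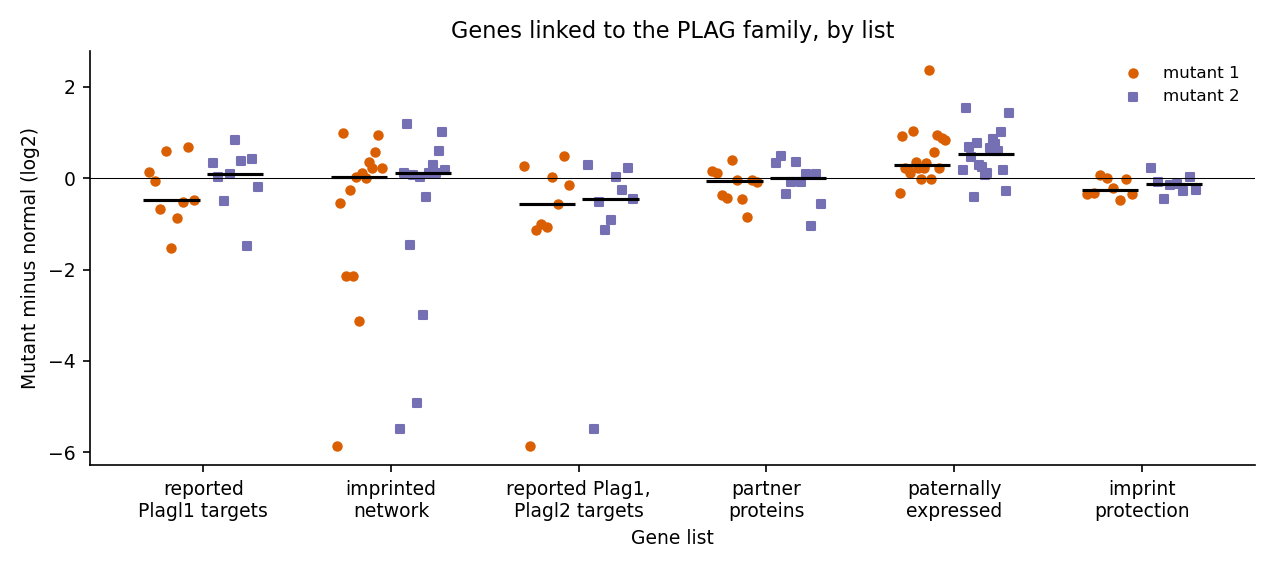
Log2 ratio of mutant to normal signal for the kept genes of 6 lists linked to the PLAG family, Plagl1 left out; circles are mutant array 1, squares mutant array 2, and black bars are medians. The paternally expressed genes have medians of 0.28 and 0.54, the reported Plagl1 targets -0.47 and 0.10, and the lowest points are Cdkn1c.

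The genes whose ratios were most like those of Plagl1 were found by the distance between pairs of log2 ratios, mutant 1 and mutant 2 against normal, over 12913 genes. The 6 nearest to 1426208_x_at were Lcp1, Timd2, Hkdc1, Rab17, Mfsd12 and Acot3, at distances of 0.05 to 0.10. Within a distance of 0.25 there were 25 genes. Lcp1, an actin-bundling protein gene of blood cells, read 284, 993 and 1302 on the normal array and mutant arrays 1 and 2. Timd2, a ferritin receptor gene, read 146, 545 and 727, and Rab17, a trafficking gene of epithelia, read 139, 536 and 677. With 3 arrays many genes share such a pattern, and likeness says nothing of a shared control.

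Markers of other tissues differed in the same arrays. Of 19 yolk sac endoderm markers measured and kept, 18 were higher in both mutant arrays, against 36.5% of all genes, and 16 rose by limma, against 0.728% of all genes called higher. Those were Afp, Apoa1, Apoa4, Apob, Apoc2, Apom, Ttr, Rbp4, Cubn, Amn, Hnf4a, Fgb, Fgg, Fga, Cldn2 and Slc2a2. Their summed signal was 22308 in the normal pool against 124403 and 132654 in the mutant pools, and none was below the 20th percentile on all arrays. All 11 kept embryonic erythroid markers were also higher in both. By limma 2 of them rose, Hba-x and Slc4a1, against 0.728% of all genes. The 12 measured summed to 34900 against 71002 and 71158. The part of the endoderm and erythroid markers in the Plagl1 values was not tested. In such bulk RNA, more cells of a type and more RNA per cell cannot be told apart.

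Markers of the embryo proper were present on every array. The 16 cardiac markers summed to 42414 in the normal pool against 23204 and 32678 in the mutant pools, with a median log2 ratio of -0.78. The 15 somite and tailbud markers measured summed to 10138, 5997 and 7252 (median -0.64 over 13 kept). The 12 mesenchymal markers summed to 10629 and 10775 on the normal array and mutant array 1 and to 22512 on mutant array 2, where Col3a1 read 7288 and Col1a1 3729. The 7 reference genes had a median of -0.01 and none passed limma. Actb read 20742, 20231 and 19224, while Sdha (3552, 4631 and 5167) and Hprt (2543, 3495 and 3105) read higher in both mutant arrays.

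**Figure D4:**
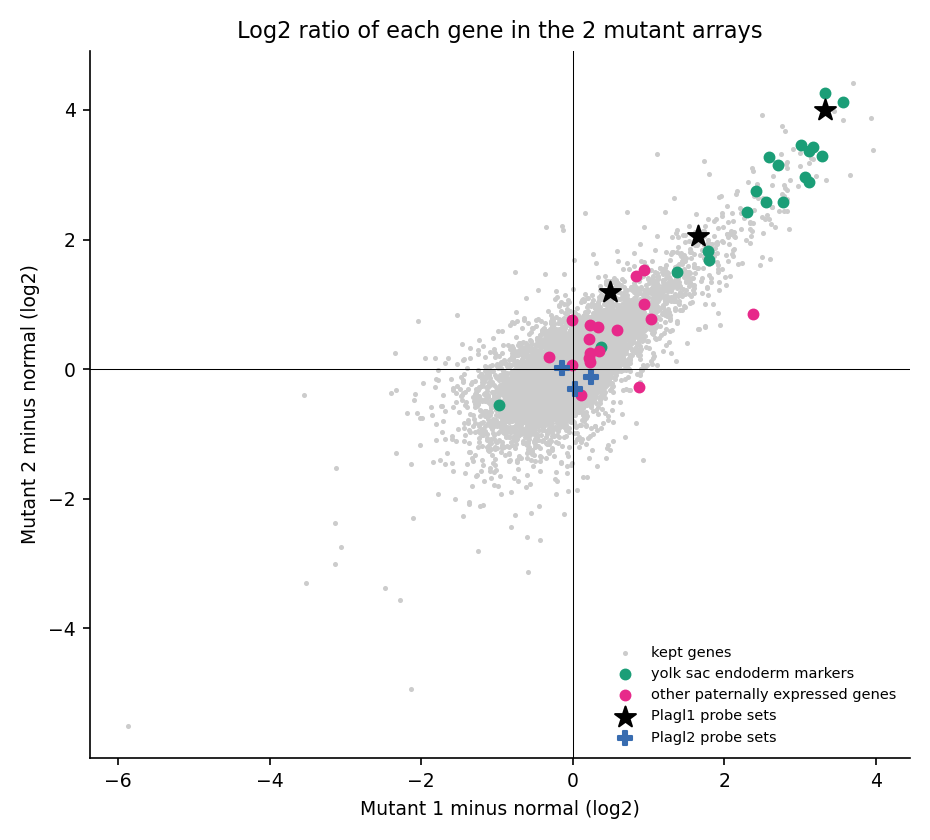
Log2 ratio to normal in mutant array 1 (horizontal) and mutant array 2 (vertical) for 12913 genes by their brightest kept probe set (grey), yolk sac endoderm markers (green), other paternally expressed imprinted genes (pink), and the kept probe sets of Plagl1 (3 stars) and Plagl2 (3 crosses). The Plagl1 stars spread from 0.49 and 1.19 to 3.32 and 4.0, with 2 of them among the yolk sac markers, and the Plagl2 crosses lie near 0. Both axes share the normal array.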

How the data were processed

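The members and gene lists were chosen with earlier results of these data known. Per the submitters' processing notes, the deposited intensity values were made with GCOS and MAS5, with versions and settings not given in the sources used here. From the values, each array had been scaled to a trimmed mean of 500 (2% cut at each end). Of 45101 probe sets, 64 controls were left out. The platform annotation gave 34945 of the remaining 45037 exactly 1 symbol.

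Values were turned into log2(signal + 31.92). The filter on dim signal asked that the average of both group means reach the 40th percentile, and 27022 probe sets met it. Limma 3.58.1 (R 4.3.3; lmFit, eBayes with trend, two-sided, Benjamini-Hochberg over kept probe sets, threshold 0.05) was fitted to the 3 arrays. It had 1 residual degree of freedom and 4.52 prior ones. The normal pool is assumed to vary as the mutant pools do. The number of arrays limits the precision. The fit was also run on simulated arrays that were all given the same spread. That run therefore does not check the assumption on the normal pool. All adjusted p-values come from limma.

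Genes were represented by their brightest kept probe set. Named genes were the members, those that passed, the nearest neighbours and the 6 most alike. Up to 4 genes per list were named by the smaller of both ratios. Others, such as Nppa, Kpna2 and Col3a1, were named outside this rule, and not all are marked where they appear. Promoters and gene order came from RefSeq (GRCm38.p6). The comparison with all C2H2 zinc finger genes could not be run, since no protein table was used here.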

Additional observations from a re-analysis of the deposited data

How the results depend on the processing

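No paired analysis was possible, because there was only 1 normal array. The brightest Plagl1 probe set kept its direction under the other pseudocounts, filters and scalings, between 1.85 and 1.93, and gave 1.66 and 2.06 with 1 mutant array left out and 2.12 as the mean of its 3 probe sets. The Plagl2 ratio was 0.20 as the mean of its probe sets, and its probe set 1442235_at turned from -0.06 to 0.0087 with quantile normalization, 0.014 with median centring and 0.028 with cyclic loess. Leaving out 1 mutant array gave Plag1 -0.19 to 0.77 and Plagl2 -0.31 to 0.02. Limma's 148 higher and 8 lower probe sets (1811 and 1853 at an unadjusted p under 0.05) became 263 and 24 with median centring. They became 0 and 0 without the filter (2423 and 2451 unadjusted) and 0 and 0 without the variance trend (1641 and 1814 unadjusted), so every limma call above depends on both choices. The neighbours' median was 0.13 with the filter at the 60th percentile and ran from -0.0090 to 0.12 with 1 mutant array left out. The network genes' median was 0.089 with quantile normalization, 0.11 with median centring, 0.094 with cyclic loess, and 0.036 to 0.11 with 1 mutant array left out. That of the reported Plagl1 targets ran from -0.47 to 0.10 there. The cause of these shifts was not tested.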

Other observations

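Lists not yet described gave mixed values. Of 5 trophoblast markers kept, 4 were higher in both mutant arrays (median log2 ratio 1.35), against 36.5% of all genes, and 1 rose by limma, against 0.728%. Of 10 decidua markers kept, 6 were lower in both (median -0.29), against 39.1%. By limma 1 fell, Prl8a2 (adjusted p = 0.0212), against 0.031%. Among mesenchymal markers the collagen gene Col1a1 read 343 in the normal pool, 775 in mutant pool 1 and 3729 in mutant pool 2. Col3a1, another fibrillar collagen gene, read 1544, 1395 and 7288. Mutant array 2 read above mutant array 1 for both, as it did for Plagl1 and for 54.7% of 12913 genes. On mutant array 1 Col3a1 read below normal, where the Plagl1 probe sets read above it. No test of a link was made.

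The PLAG1 consensus was found before 5 of 8 reported Plagl1 targets that have a RefSeq window (Cdkn1a, Apaf1, Socs3, Pparg and Adcyap1r1). It was found before 5 of 12 network genes and 2 of 4 reported Plag1 and Plagl2 targets, against 21.9% of 27025 genes. There was no matching on base composition. Among windows at least as rich in G and C as that of Plagl1, 62.5% held the consensus. The Plagl1 site GGGGCCCC was before 0 of the 8, 1 of the 12 (Peg3) and 0 of the 4, against 1.03% of genes.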
